A study of Mus musculus with 5 samples.

Results

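The genes described here encode the proteins of the cytosolic ribosome, and 76 of the 19699 entries of the deposited table were taken: 46 for the large subunit and 30 for the small subunit. An entry was taken when its symbol was Rpl or Rps followed by a number and at most a closing a or x, or was Rplp0, Rplp1, Rplp2 or Rpsa. Entries named as pseudogenes and Rps27l were left out. Members were chosen by symbol alone, with no measured value in the rule, but the set was proposed with results of these libraries known, so the counts below describe the set and are no independent evidence of its direction. All 76 passed the filter on low values, which was at least 1 FPKM in at least 2 libraries, and they lie on 19 chromosomes. FPKM is the number of fragments per kilobase of a gene's exons, scaled to the total fragments of the library.

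The libraries came from C57 mouse embryos at E13.5 (embryonic day) and were made from the main airway region, trachea and lung included. The 2 mutant libraries are labelled Prmt5 knockdown, and the series text describes a knockout of Prmt5 in epithelial cells and writes the genotype as Shh; Prmt5. The 3 control libraries are labelled WT and are described as littermates. The sources used here do not give the driver of the deletion, the alleles the controls carry or whether embryos were pooled. Each control held both Xist and the Y-linked Ddx3y (values below), as RNA of more than a single embryo would. Nothing in the labels says that the libraries of a group came from separate embryos, and p-values here measure only spread among libraries, which may be technical. A protocol for adipogenic differentiation of cultured cells also stands in the labels and does not describe this tissue. Prmt5 is an arginine methyltransferase that makes symmetric dimethylarginine on histones, splicing proteins and other substrates.

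A eukaryotic ribosome has a small subunit, which reads the mRNA, and a large subunit, which joins amino acids. Almost every ribosomal protein is present once per ribosome, and the acidic stalk proteins Rplp1 and Rplp2 are an exception. The mRNAs of ribosomal proteins are short and abundant and begin at a C followed by a run of pyrimidines, the terminal oligopyrimidine (TOP) motif, through which mTOR controls their translation. Ribosomal protein transcripts are plentiful in growing embryonic tissue.

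Prmt5 itself (chr14:54507187-54517525, GRCm38) stood at 23.7 and 20.1 FPKM in mutants 1 and 2, against 28.7, 26.4 and 25.8 FPKM in controls 1, 2 and 3. Both mutants were below all 3 controls, with a log2 change of -0.29 (SE 0.12, limma adjusted p = 0.234). The same order held for 3135 of all 12838 genes tested, so for Prmt5 it is a weak check of the labels. The change of Prmt5 was -0.18 without mutant 2, -0.40 without mutant 1 and -0.86 as TPM, where the median of all genes was -0.59. As TPM it did not pass the test. An exact two-sided permutation test of Prmt5 gave p = 0.1, the smallest that 2 against 3 libraries can give. Of 8 lung epithelial and 8 lung mesenchymal marker genes, none of the 16 was at 0 in any library. No skeletal muscle, cartilage or neuronal marker was at 0 either, so detection alone cannot check the airway label. Reads recovered from the deposited values numbered 15277654 to 18223218 per library over the listed genes.

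Ribosomal protein genes were higher in the mutant libraries as a set, by a median of 0.44 on the log2(FPKM + 1) scale, or 1.36-fold (interquartile range 0.34 to 0.51, range 0.069 to 0.77), while the median over all 12838 genes tested was -0.059. All 76 changes were above 0 in FPKM, where 38.9% of all genes tested were. The direction depends on the scaling: as TPM, in which the length-scaled values of every library sum to one total, 65 of the 76 were below 0 and the median was -0.14, but the median of all genes then was -0.59; after quantile normalization 7 were below 0. Both mutants exceeded all 3 controls for 69 of the 76 members, against 13.2% of all genes tested. Among the 7 whose groups overlapped were Rplp0, Rpl10, Rpl14, Rpl21, Rpl24 and Rpsa. Single genes seldom passed the test: 1 member, Rpl39, rose at a limma adjusted p under 0.05, where 0.989% of all genes tested did, and no member fell (2.36% of all genes were called in either direction). At an unadjusted p under 0.05, 56 members were higher and none lower, against 6.53% of all genes higher. Among the 729 other genes at least as abundant as the least abundant member but Rpl24, the median change was 0.020, 4 rose, 2 fell, and both mutants exceeded all controls for 153.

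By library, the summed level of the members was 59211 and 67492 FPKM in mutants 1 and 2. It was 49727, 49933 and 42373 FPKM in controls 1, 2 and 3. The mutant mean of 63352 ± 5856 FPKM (SD, n = 2) was 1.34 times the control mean of 47344 ± 4307 FPKM (SD, n = 3), and the groups did not overlap. In reads, the members took 8.002% and 9.06% of the listed reads of the mutants and 6.74%, 6.76% and 5.81% of those of the controls. Mutant 2 was the highest library for 71 members, and control 3 was the lowest for 66. Differences within a group were smaller than those between groups but not small: the median member was 0.17 higher on the log2 scale in mutant 2 than in mutant 1, and 0.23 and 0.24 higher in controls 1 and 2 than in control 3. Mutant 1, the lower mutant, exceeded control 1 by a median of 0.29 with 71 members higher, and control 2 by 0.27 with 73 higher. Leaving out control 3 kept the ratio of summed levels at 1.27, with both mutants above both remaining controls for 69 members (90.8%, against 17.0% of all genes tested). Without mutant 2 the ratio was 1.25 and mutant 1 exceeded all controls for 69 members, against 29.2% of all genes. In bulk tissue, a change in the number of cells rich in these transcripts and a change in their amount per cell cannot be told apart.

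**Figure D1:**
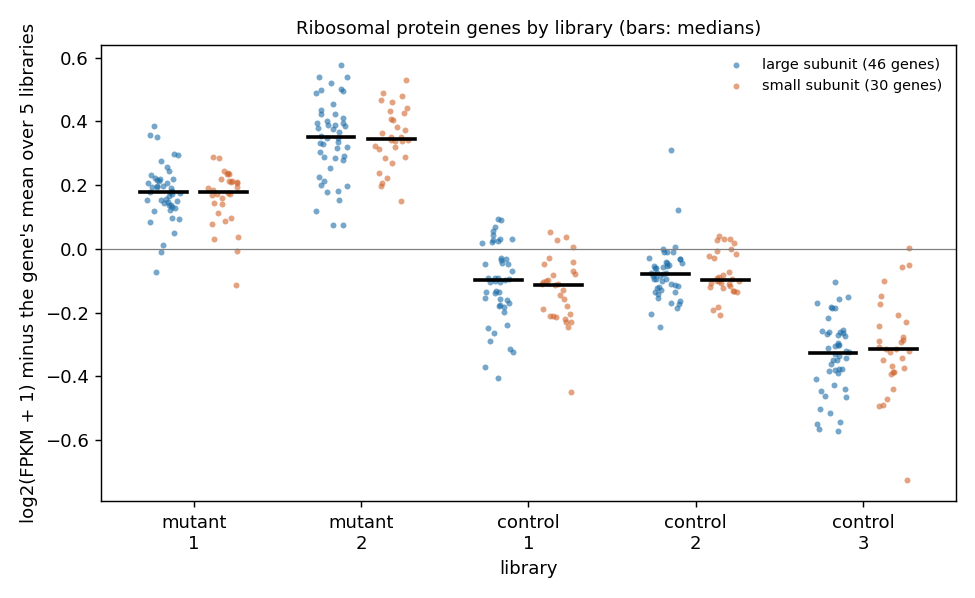
Level of each of the 76 ribosomal protein genes in each library, as log2(FPKM + 1) minus the gene's mean over the 5 libraries (y axis), with large-subunit genes in blue, small-subunit genes in orange and black bars at the medians. The median member lies at 0.18 and 0.35 in mutants 1 and 2 and at -0.10, -0.086 and -0.32 in controls 1, 2 and 3. As TPM the median change is -0.14, beside -0.59 for all genes tested.

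The 2 subunits had close medians, and the difference between them was not tested. Large-subunit genes had a median change of 0.42 (1 of 46 called, 33 at an unadjusted p under 0.05, 41 with both mutants above all controls). Small-subunit genes had a median change of 0.44 (0 of 30 called by limma, 23 at an unadjusted p under 0.05, 28 with both mutants above all controls; voom on recovered reads called 9 members in all, Rps7, Rps18 and Rps25 among them, and 603 of all genes, with 1.89% of all genes called higher). The ratio of summed large-subunit to summed small-subunit levels in FPKM was 1.19 and 1.14 in the mutants and 1.20, 1.17 and 1.16 in the controls. These ratios overlapped between the groups, and the difference of the means was -0.017.

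**Figure D2:**
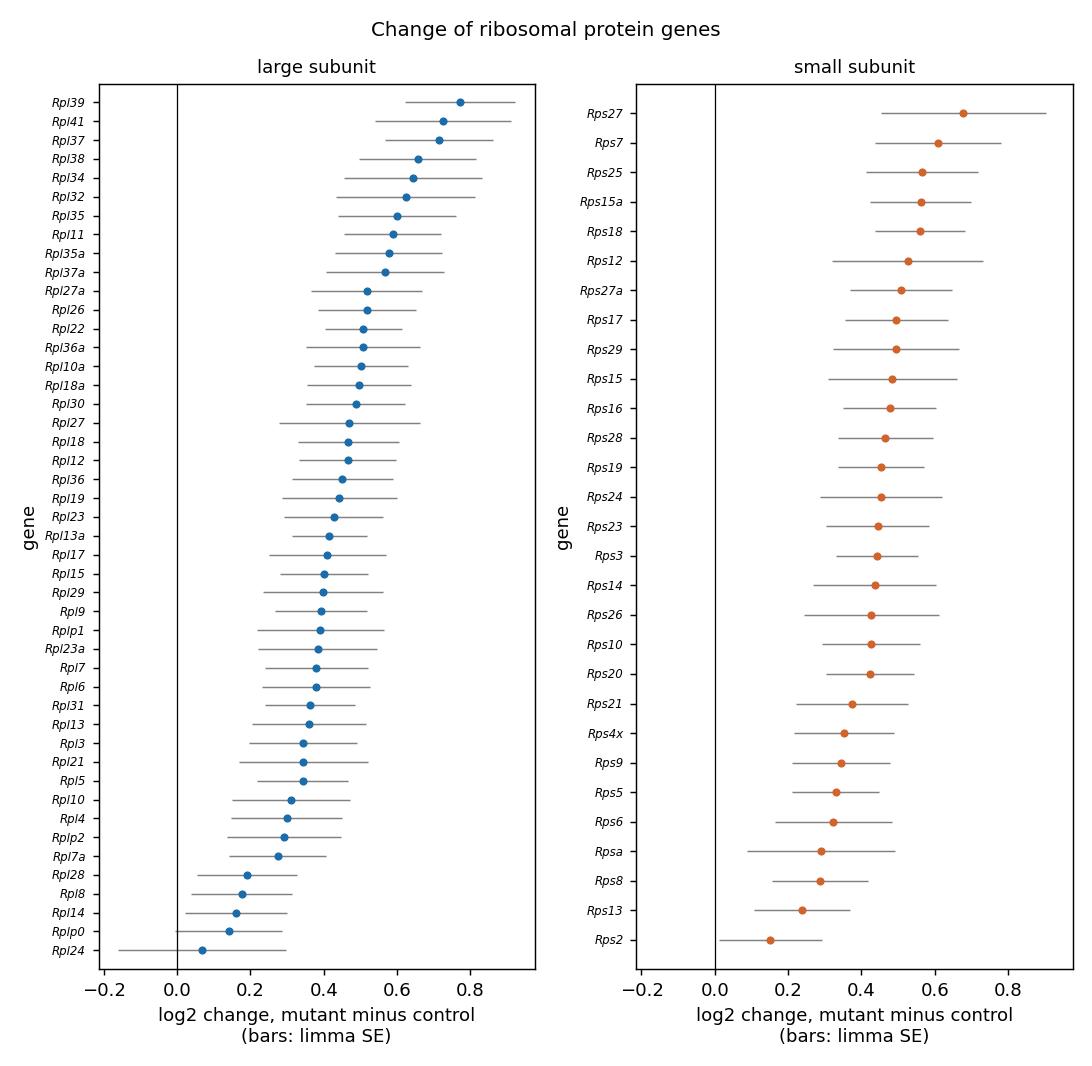
Log2 change of the ribosomal protein genes named on the y axis, mutant minus control on the log2(FPKM + 1) scale (x axis), ordered by size within the large subunit (left) and the small subunit (right); points are limma estimates and bars are limma SEs. All points lie above 0, from 0.069 for Rpl24 to 0.77 for Rpl39. After TPM scaling 65 of the 76 members lie below 0, and the median of all genes is -0.59.

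Levels per kilobase of exons differed widely among the members, although their proteins are made in near equal numbers. The most abundant in mean FPKM over the 5 libraries were Rps12 (2797), Rps26 (2556), Rplp1 (2362) and Rps7 (1833), which were singled out here for their level. Rps12 ranged from 1940.1 FPKM in control 3 to 3831 FPKM in mutant 2, and Rps7 from 1289 FPKM in control 3 to 2428 FPKM in mutant 2. The lowest after Rpl24 were Rpl13a (57.4), Rps19 (113) and Rps15a (119), all in mean FPKM. This order depends on the exon length in the FPKM, which can far exceed the length of the principal transcript. Rps15a had 13224 reads in mutant 1 and a principal transcript of 640 bases. Rpl36, at a mean of 813 FPKM, had 5834 reads there and 383 bases. The order is thus not one of mRNA amounts. Among the 3 controls, the coefficient of variation of a member's FPKM had a median of 10.7% and ran from 3.38% to 44.4%, the last for Rpl24.

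The largest changes belonged to genes of short proteins. Rpl39 (chrX:37082520-37085402), a protein at the large subunit's exit tunnel, stood at 257 and 286 FPKM in the mutants, against 148, 189 and 142 FPKM in the controls. Every mutant value exceeded every control value, and Rpl39 rose 1.70-fold in mean FPKM (log2 change 0.77, SE 0.15, limma adjusted p = 0.0485). That call held in 3 of 16 alternative analyses, whose adjusted p for Rpl39 ran from 0.0201 to 0.807. It was lost without mutant 1 (log2 change 0.85, adjusted p = 0.181), mutant 2 (0.69, adjusted p = 0.361), control 1 (0.72, adjusted p = 0.087) or control 3 (0.70, adjusted p = 0.0811), with changes close to that over all 5 libraries. Leaving out a mutant leaves a single one, assumed to vary like the controls, and limma then called 4 and 11 genes in all. As TPM the change of Rpl39 was 0.20.

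Rpl41 (chr10:128548114-128549305), among the shortest proteins of the ribosome, stood at 1219.9 and 1369 FPKM in the mutants against 781, 950.1 and 642 FPKM in the controls (log2 change 0.73, limma adjusted p = 0.0925). Rpl37 (chr15:5116645-5119140), a zinc-finger protein of the large subunit, stood at 649 and 716 FPKM against 450.1, 445 and 358 FPKM (log2 change 0.71, adjusted p = 0.0562). Rps27 (chr3:90212522-90213651), a zinc-finger protein of the small subunit, stood at 446 and 528 FPKM against 340.1, 370.5 and 221 FPKM (log2 change 0.68, adjusted p = 0.166). The groups did not overlap for any of these 3, and control 3 was the lowest library for each. Rpl38 (chr11:114668524-114672331), whose loss in mice disturbs translation of Hox mRNAs and the axial skeleton, stood at 547 and 628 FPKM against 415, 396 and 312 FPKM (log2 change 0.66, adjusted p = 0.0827). As TPM these changes shrank to 0.15 for Rpl41, 0.14 for Rpl37, 0.10 for Rps27 and 0.081 for Rpl38, and after quantile normalization Rpl41 was at 0.36, Rpl37 at 0.47 and Rpl38 at 0.44. Rps27 was at 0.45 without control 3 and at 0.32 with the sex make-up of the libraries as a covariate.

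Among the smallest changes were those of Rpl24, Rplp0, Rps2 and Rpl14, and no member had a change below 0 in FPKM. Rpl24 (chr16:55966275-55971435), at the interface between the subunits, is set apart by its level: 0.863 and 1.18 FPKM in the mutants, against 0.780, 1.43 and 0.639 FPKM in the controls. These are only 14 and 19 reads in the mutants and 15, 24 and 12 in the controls, whereas the next lowest member, Rpl13a, had a mean of 57.4 FPKM. Its change of 0.069 was not detectable at this depth, and it was -0.046 without control 3, -0.044 without mutant 2, -0.086 with the sex make-up of the libraries as a covariate and -0.26 in TPM. Rps2 (chr17:24718116-24721929), near the mRNA entry site of the small subunit, stood at 912 and 992 FPKM in the mutants against 771, 911 and 894 FPKM in the controls, so the lower mutant barely exceeded the highest control (log2 change 0.15, adjusted p = 0.628). Rpl14 (chr9:120571444-120574654) stood at 958 and 1076 FPKM against 965, 928 and 834 FPKM (log2 change 0.16), and mutant 1 fell within the controls. As TPM all of these 4 changes were below 0, and after quantile normalization those of Rplp0 (-0.16), Rps2 (-0.13) and Rpl14 (-0.085) were. Without control 1 the change of Rps2 was 0.076, and without mutant 2 that of Rpl14 was 0.078.

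The promoters of these genes are shown at their annotated starts. RefSeq windows (GRCm38.p6) matched 56 members by symbol, with 66 windows in all. Each window runs further on both sides of the start than the bases printed. The shares of windows given after the lines count matches anywhere in the whole window, except for the start-site run. A line without capitals may thus have a match elsewhere in its window. The lines below give 60 bases before and 20 bases from the annotated start, 5′ to 3′ on the gene's strand, for the genes of the 5 largest changes and for 4 of the smallest. Capitals mark a pyrimidine run that begins with C at the start site, CCGGAAG (a core bound by ETS factors) or GGGCGG with its reverse complement (the GC box).
Rpl39, chrX:37085203-37085282 (-): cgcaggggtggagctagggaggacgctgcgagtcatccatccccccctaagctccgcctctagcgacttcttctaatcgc
Rpl41, chr10:128549149-128549228 (-): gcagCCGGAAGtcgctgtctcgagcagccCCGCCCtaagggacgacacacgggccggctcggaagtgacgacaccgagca
Rpl37, chr15:5116553-5116632 (+): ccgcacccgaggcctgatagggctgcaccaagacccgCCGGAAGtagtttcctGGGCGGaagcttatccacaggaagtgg
Rps27, chr3:90213629-90213708 (-): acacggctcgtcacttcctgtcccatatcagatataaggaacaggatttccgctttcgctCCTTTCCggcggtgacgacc
Rpl38, chr11:114668520-114668599 (+): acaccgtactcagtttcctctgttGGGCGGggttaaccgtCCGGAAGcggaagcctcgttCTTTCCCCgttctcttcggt
Rpl24, chr16:55966215-55966294 (+): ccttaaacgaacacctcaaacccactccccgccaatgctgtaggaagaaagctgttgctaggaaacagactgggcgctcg
Rplp0, chr5:115559407-115559486 (+): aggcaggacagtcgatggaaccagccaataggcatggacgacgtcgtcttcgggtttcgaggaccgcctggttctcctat
Rps2, chr17:24720003-24720082 (+): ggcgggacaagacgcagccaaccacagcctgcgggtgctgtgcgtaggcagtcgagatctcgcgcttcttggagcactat
Rpl14, chr9:120571457-120571536 (+): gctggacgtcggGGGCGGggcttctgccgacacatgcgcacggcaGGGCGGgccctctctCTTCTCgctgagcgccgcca
A start-site run, C followed by at least 4 pyrimidines, was present in 13 of the 66 windows (19.7%), against 2.51% of all 32851 RefSeq windows. CCGGAAG on either strand was in 36.4% of member windows and 8.86% of all windows, GGGCGG in 60.6% and 35.7%, AAGATGG (a core of the YY1 motif) in 16.7% and 6.34%, and TATAAA (the TATA box) in 9.09% and 13.6%. A match is a description of the letters in the window, and no match says nothing of a factor. An annotated start may differ from the one used, at times by more than a few bases. The printed bases of Rpl37 end at chr15:5116632, before the gene's listed start at 5116645. The runs of Rps27, Rpl38 and Rpl14 above belong to genes at both ends of the order of change. The 13 members with such a run had a median log2 change of 0.43 (range 0.16 to 0.68), and the 43 with a window but no run had 0.45 (range 0.069 to 0.77). This split follows the annotated starts, so it need not separate mRNAs with a TOP motif from those without.

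The stalk of the large subunit, which recruits the translation factors, is built from Rplp0, Rplp1 and Rplp2. Rplp0 (chr5:115559467-115563727), its base, stood at 1510.2 and 1581 FPKM in the mutants against 1529, 1404 and 1283 FPKM in the controls (log2 change 0.14, adjusted p = 0.669). Mutant 1 was below control 1, so the groups overlapped. Rplp1 (chr9:61913284-61914542) stood at 2592 and 2906 FPKM against 2179.7, 2319 and 1815 FPKM (log2 change 0.39, adjusted p = 0.282), with no overlap, although its change was -0.053 after quantile normalization and -0.19 in TPM. Rplp2 (chr7:141447370-141451585) stood at 280.1 and 281 FPKM against 192, 271 and 231 FPKM (log2 change 0.29, adjusted p = 0.37; -0.28 in TPM). None of the 3 stalk genes passed the test. The change of Rplp0 was 0.077 without control 3, and that of Rplp2 was 0.17 without control 1.

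Rpl5 and Rpl11 assemble with the 5S rRNA, and outside the ribosome this particle can bind Mdm2 and stabilise p53. Rpl11 (chr4:136028265-136053428) stood at 401 and 433 FPKM in the mutants against 284, 304 and 245 FPKM in the controls (log2 change 0.59, adjusted p = 0.0681). Rpl5 (chr5:107900502-107909005) stood at 388 and 429.5 FPKM against 345, 326 and 296 FPKM (log2 change 0.34, adjusted p = 0.196). Both were higher in each mutant than in each control in FPKM, and neither passed the test; in TPM the changes were 0.014 for Rpl11 and -0.23 for Rpl5. Rpl22 (chr4:152325742-152334071), an RNA-binding protein dispensable for general translation, had one of the smallest SEs: 198 and 212 FPKM against 146, 148 and 138 FPKM (log2 change 0.51, SE 0.11, adjusted p = 0.057). Its change was -0.065 in TPM, and it passed the test when genes below 5 FPKM were left out (1.49% of the genes kept were called higher) and with voom on recovered reads.

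Rps10 is itself a known substrate of Prmt5, whose methylation of it has been tied to ribosome assembly. Rps10 (chr17:27630418-27636669) stood at 467 and 525 FPKM in the mutants against 360.2, 409 and 339.8 FPKM in the controls (log2 change 0.43, limma SE 0.13, adjusted p = 0.147; -0.15 in TPM). The groups did not overlap, and its change was close to the median of 0.44 over the 76 members. Rps19 (chr7:24884371-24889806), the gene most often mutated in Diamond-Blackfan anaemia, stood at 129 and 141 FPKM against 101, 105 and 89.1 FPKM (log2 change 0.45, adjusted p = 0.0943; -0.12 in TPM). Rps27a (chr11:29545846-29548109), made as a fusion with ubiquitin, stood at 557 and 612 FPKM against 436, 438 and 362 FPKM (log2 change 0.51, adjusted p = 0.107; -0.067 in TPM). All of these were higher in both mutants than in every control in FPKM.

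Rpsa, the small-subunit protein that is also described as a laminin receptor, stood apart within the mutants. Rpsa (chr9:120127689-120132369) was at 1158 and 1722 FPKM in mutants 1 and 2, against 1283, 1162 and 1033 FPKM in the controls (log2 change 0.29, adjusted p = 0.501; -0.29 in TPM). Mutant 1 lay below controls 1 and 2, and the change was 0.0033 without mutant 2 and 0.58 without mutant 1. In the same library the processed copy Rpsa-ps10 (chr3:150072658-150073542) was listed at 436 FPKM, against 8.45 FPKM in mutant 2 and 3.75, 4.50 and 4.03 FPKM in the controls. It took 15.2% of the reads of the pair in mutant 1 and at most 0.233% elsewhere. Summed over the pair and scaled to listed reads (RPM), the level was 2603 and 3291 in mutants 1 and 2 and 2452, 2221 and 1975 in the controls, and the groups no longer overlapped. The sources used here do not give how the counting split reads between near-identical copies, and its part in the result was not tested.

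Of the 76 members, 4 are X-linked, and the libraries differ in sex make-up: Xist was at 0.0673 and 0.289 FPKM in the mutants, against 57.3, 58.1 and 115 FPKM in the controls, while the Y-linked Ddx3y was detected in all 5 (11.96 and 10.8 FPKM, against 9.91, 6.70 and 2.54 FPKM). Each control thus held both RNAs, as a mix of female and male embryos would, and the mutants held almost no Xist. Sex make-up therefore went with genotype, and their effects cannot be fully told apart. The X-linked members had a median change of 0.43 and the 72 autosomal members 0.44. Besides Rpl39, Rpl36a (chrX:134585654-134588062) stood at 342 and 387 FPKM against 263, 294 and 216 FPKM (log2 change 0.51, adjusted p = 0.142; -0.068 in TPM). Rps4x (chrX:102184941-102189394), which escapes X inactivation in humans but not in mice, stood at 1026 and 1180.4 FPKM against 906, 822 and 858 FPKM (log2 change 0.35, adjusted p = 0.221; -0.22 in TPM). Rpl10 (chrX:74270812-74273135) stood at 652 and 752 FPKM against 655, 559 and 489 FPKM (log2 change 0.31, adjusted p = 0.353; -0.26 in TPM), and mutant 1 was below control 1. With sex make-up as a covariate the median change of all 76 members was 0.32, 1 member was below 0 and none was called.

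Among the members, a shorter coding length went with a larger change. Across the 75 members other than Rpl24, the log2 change in FPKM and the coding length of the principal transcript had a Pearson's r of -0.60 and a Spearman's rho of -0.63. This is a correlation across genes of the same 5 libraries, which are not independent replicates. Within the large subunit (45 genes) rho was -0.68, and within the small subunit (30 genes) it was -0.54. Neither GC content (rho -0.12) nor mean level (rho -0.18) ordered the members as closely. The 9 members of at most 300 coding bases had a median change of 0.66, the 46 with up to 600 bases 0.46, the 18 with up to 900 bases 0.34 and the 3 longer ones, Rplp0, Rpl3 and Rpl4, 0.30.

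**Figure D3:**
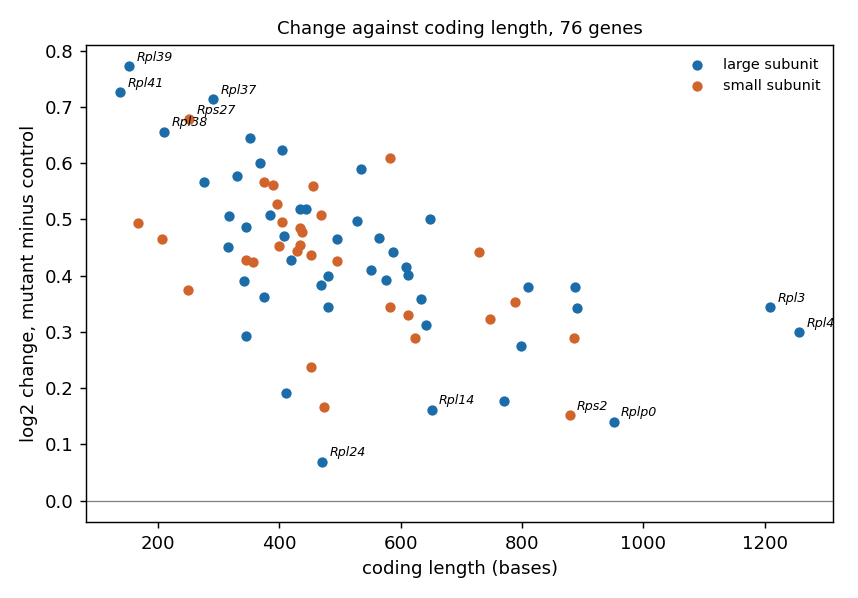
Log2 change of each of the 76 ribosomal protein genes, mutant minus control on the log2(FPKM + 1) scale (y axis), against the coding length of its principal transcript in bases (x axis), large subunit in blue and small subunit in orange. The points fall from Rpl39 and Rpl41 at the upper left to Rplp0 and Rps2 at the lower right (rho -0.63 without Rpl24). After TPM scaling 65 of the changes are below 0, and the median of all genes is -0.59.

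Other short and abundant genes also had a median change above 0, although few passed the test. Of the 53 other genes tested at 50 FPKM or more with at most 300 coding bases, 88.7% had a change above 0 (38.9% of all genes tested). Their median was 0.27, both mutants exceeded all controls for 47.2% (13.2% of all genes), and 1 was called by limma. In the next classes of such genes the median was 0.091 for the 207 with up to 600 bases, 0.056 for the 158 with up to 900 bases and -0.023 for the 225 with up to 1500 bases. In each of these length classes the ribosomal protein genes had the higher median. Over all 11851 other genes tested with a coding length, rho was -0.085. Between libraries of a single group the length order varied: across the 75 members, rho of the difference with coding length was -0.59 for control 2 minus control 3, -0.13 for control 1 minus control 3, 0.38 for control 1 minus control 2 and -0.23 for mutant 2 minus mutant 1. For mutant 1 minus control 2 it was -0.24, the weakest of the 6 pairs of a mutant and a control, of which the strongest, mutant 1 minus control 3, had -0.59. The part of transcript length, or of the fragment sizes of the libraries, in the higher levels was not tested.

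**Figure D4:**
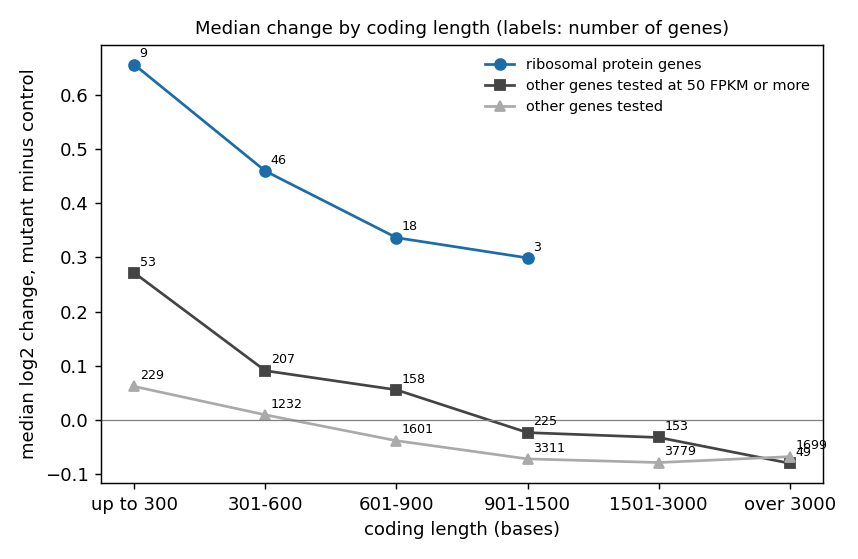
Median log2 change, mutant minus control on the log2(FPKM + 1) scale (y axis), by class of coding length in bases (x axis), for ribosomal protein genes (blue), other genes tested at 50 FPKM or more (dark grey) and all other genes tested (light grey), with the number of genes beside each point. Ribosomal protein genes fall from 0.66 to 0.30 and lie above the other genes in each of the 4 classes they occupy. After TPM scaling their overall median is -0.14 and that of all genes -0.59.

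Ribosomal proteins outside the symbol rule had changes above 0 as well, and none was called. Of 6 listed, 4 were found, with Rps3a1 (log2 change 0.46), Fau (0.30) and Gnb2l1, the scaffold protein Rack1 (0.24), among them. Both mutants exceeded all controls for 3 of the 4 (13.2% of all genes tested). At an unadjusted limma p under 0.05, 2 were higher (6.53% of all genes). Paralogs, of which 6 were tested, gave 1 call: Rps27l, a p53-inducible relative of Rps27, rose from 115, 146 and 102 FPKM in the controls to 205 and 248 FPKM in the mutants (log2 change 0.91, limma adjusted p = 0.0459). Of all genes tested, 0.989% were called higher. The adjusted p of Rps27l lies close to the threshold of 0.05, and its values under the alternative analyses are not given here. The tissue-restricted or alternative copies Rpl22l1 (0.15), Rpl7l1 (0.16), Rps4l (0.26) and Rpl36al (-0.12) did not pass, nor did Rps27rt (0.91, adjusted p = 0.186). These lists were also chosen with results of the libraries known.

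Other mRNAs with a TOP motif encode translation elongation and initiation factors and nucleolar proteins. Their median change lay between that of the members and that of all genes tested. Of 19 tested, none was called, 15 had a change above 0, both mutants exceeded all controls for 8, and the median was 0.15. Over all genes tested, 38.9% had a change above 0, and both mutants exceeded all controls for 13.2%. The highest were Eif3e, a subunit of the initiation factor eIF3 (0.42, adjusted p = 0.11), the nucleolar chaperone Npm1 (0.36), the elongation factor subunit Eef1b2 (0.35) and Naca, which guards nascent chains (0.31). The lowest was the X-linked Eif2s3x at -0.34 (adjusted p = 0.221), and the part of the libraries' sex make-up in its change was not tested. Ribosome assembly genes, which process rRNA and build the subunits in the nucleolus, gave no call among 25 tested. Of these, 21 had a change above 0 and 6 had both mutants above all controls, beside the same shares of all genes. Their median was 0.11. Among them Mybbp1a (0.32), Nip7 (0.31) and Ebna1bp2 (0.30) were highest, and Heatr1 (-0.12), a factor of rRNA transcription and processing, was lowest. At an unadjusted limma p under 0.05, 2 genes of each list were higher and 1 TOP gene, Eif2s3x, was lower. Of all 12838 genes tested, 838 were higher and 1583 lower at that p.

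Markers of other tissues also moved between the groups. Skeletal muscle markers summed to 69.0 and 159 FPKM in the mutants against 474, 329 and 739.7 FPKM in the controls, all 7 were below every control in both mutants and 6 fell by limma. Of all 12838 genes tested, 3135 were below every control in both mutants, 176 fell and 127 rose. Control 3, with the most muscle RNA, was also the lowest library for most ribosomal protein genes, whereas mutant 1, with the least, was below mutant 2 for 72 of the 76. Cartilage markers summed to 16.7 and 13.1 FPKM against 61.8, 40.7 and 36.6 FPKM. Only 2 of the 4 passed the filter on low values, and these 2 fell. Epithelial markers summed to 257 and 261 FPKM against 642, 342 and 248 FPKM. None of these 8 was called by limma, 4 were below every control in both mutants and 0 were above. Mesenchymal markers summed to 1359 and 1139 FPKM against 1323, 1339 and 1706 FPKM. Of these 8, 3 rose, 5 were above every control in both mutants and 2 were below. Erythroid markers (4408 and 5408 FPKM against 5626, 5057 and 3804) and cycling-cell markers (196 and 216 FPKM against 220.3, 178 and 169) overlapped between the groups, and none of either list was called by limma. No endothelial or macrophage marker was called either, and 1 of 5 neuronal markers fell. No marker of these lists was at 0 in any library. The rRNA-like entry Gm23935 took 30.1% and 64.8% of the summed FPKM of the mutants and 7.69%, 51.3% and 22.6% of that of the controls, which sets the TPM scale. In listed reads it took 0.783% and 3.44% in mutants 1 and 2, and 0.147%, 1.88% and 0.498% in controls 1, 2 and 3. The part of tissue makeup or of this entry in the higher ribosomal protein levels was not tested; in TPM totals without Gm23935 and its like, the median change was 0.38.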

How the data were processed

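Gene levels were deposited by the authors as FPKM, 1 column per library; alignment was to GRCm38 (mm10), per the submitters' processing notes, and the sources used here name no aligner, counter or library strandedness. No column lacked a sample. The members and gene lists were chosen with earlier results of these data known. The 12838 genes that reached 1 FPKM in 2 or more libraries were tested on log2(FPKM + 1) with limma 3.58.1 in R 4.3.3 (lmFit, then eBayes with a trend), 2 mutants against 3 controls, with Benjamini-Hochberg adjustment over all genes tested and a threshold of 0.05; fold changes on this scale understate changes of low genes. The test was checked on simulated data, in which more of its calls were false than the threshold allows. Named genes were the 5 largest and the 5 smallest changes and members with a known role of their own; some values are not reported here. Each FPKM is a whole multiple of 1 read's worth; with GENCODE exon lengths, whole reads were recovered for all 19699 entries (relative tolerance 1e-09), 73.9% of the matched entries having the annotated length exactly. Depth was 15652503 to 18682463 reads per library on that scale. Coding lengths came from GENCODE, and gene coordinates are on GRCm38. Alternatives covered pseudocount, filter, scaling, sex make-up, a replicate block, voom and leaving out each library; 1, scaling by reads outside these genes, was chosen after seeing the data. Genes that share reads with near-identical copies are uncertain.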

Additional observations from a re-analysis of the deposited data

How the results depend on the processing

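The median change of the 76 members stayed above 0 in 15 of 16 alternatives; it was -0.14 in TPM (all genes -0.59) and 0.20 after quantile normalization, and it exceeded the median of all genes in each, by 0.19 to 0.64. The number of members called fell from 1 to 0 with a pseudocount of 0.1, no filter, median ratio scaling, quantile normalization, TPM, TPM without 3 uneven entries, sex make-up as a covariate and scaling by reads outside these genes, which was chosen after seeing the data; it was 3 with a filter at 5 FPKM and 9 with voom on recovered reads. Leaving out 1 library gave 0 to 1 calls, and the median change of large minus small subunit, -0.021 with all libraries, ran from -0.035 to 0.012 (0.026 after quantile normalization). As TPM, changes turned below 0 for Rpl24 (-0.26), Rplp0 (-0.44), Rps2 (-0.42), Rpl14 (-0.41), Rplp1 (-0.19), Rplp2 (-0.28), Rpsa (-0.29), Rpl5 (-0.23), Rps10 (-0.15), Rpl22 (-0.065), Rps27a (-0.067), Rpl36a (-0.068), Rps4x (-0.22), Rpl10 (-0.26) and Rps19 (-0.12). Quantile normalization turned Rplp0 (-0.16), Rps2 (-0.13), Rpl14 (-0.085) and Rplp1 (-0.053). Rpl24 was -0.086 with the sex covariate, -0.046 with a replicate block and -0.046 (without control 3) to 0.24 (without control 2) when 1 library was left out. The cause of these changes was not tested. The replicate block left 0 calls and a median of 0.36, as leaving out control 3 did, since control 3 is alone in its block. Same-numbered libraries had deviations from the group means correlated at -0.067 and 0.020. The 2 mutants deviate equally and oppositely, so these values cannot show whether same-numbered libraries were handled together. Over all genes, limma called 303 (127 higher, 176 lower), against 69 of 19699 without a filter, 67 in TPM (10 higher, 57 lower), 250 after quantile normalization (133 higher, 117 lower), 177 with the sex covariate, 603 with voom and 4 to 284 without 1 library (4 without mutant 1, 11 without mutant 2). With 2 mutants, an exact test cannot go below 0.1, and Rpl24 at 12 to 24 reads is too low to read.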

Other observations

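Entries named as ribosomal protein pseudogenes, 148 in all, summed to 738 and 476 FPKM in the mutants, against 456, 269 and 252 FPKM in the controls. Without 3 of them (Rpsa-ps10, Rps24-ps3 and Rps19-ps6), chosen after their values were seen, the sums were 300.4 and 412 FPKM against 240.1, 263 and 248 FPKM. Some were high in a single library. Rps24-ps3 (chrX:79195047-79195448) was listed at 211 FPKM in control 1 and 44.2 FPKM in mutant 2, against 0.789, 1.07 and 0.137 FPKM in mutant 1 and controls 2 and 3. In control 1 it took 6.75% of the reads of Rps24 and this copy together. Rpl15-ps2 (chr9:72060937-72061549) stood at 11.7 FPKM in mutant 2 and at no more than 1.04 FPKM in the other libraries. Rps19-ps6 (chr12:110898114-110898551) stood at 10.9 FPKM in mutant 2 and at no more than 1.26 FPKM elsewhere. Rpl21-ps15 (chrX:151215167-151215649), at 54.5 and 66.9 FPKM in the mutants, against 56.9, 53.8 and 59.9 FPKM in the controls, was at a like level in all 5.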
